A study of Mus musculus with 2 samples.

Results

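ARID4B intervals that lay at the ends of 2 or more protein-coding genes are described here by the spacing, arrangement and function of the genes they joined. ARID4B is a chromatin protein with an AT-rich interaction domain and a subunit of the SIN3-histone deacetylase complex, a corepressor that removes acetyl groups from histones. Chromatin came from a pool of 108 testes of wild type male mice at postnatal day 1.5, on a hybrid C57BL6/J and 129/SvEv background, and was immunoprecipitated with an antibody against ARID4B, with input DNA as the control. An interval was counted as shared when it overlapped, by 1 bp or more, the 1000 bp either side of an end of at least 2 protein-coding gene records in the RefSeq gene table for mouse build GRCm38. That rule took 940 of the 6632 intervals (14.2%, 95% Clopper-Pearson interval 13.3 to 15.0%). A further 4383 intervals lay at the ends of 1 protein-coding gene and 1309 at none.

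With 1 ChIP library and 1 input library, values have no replicate check, and no test between groups was made. Intervals on shares and medians cover counting error only. Gene pairs are not independent of each other, and the depth of the libraries is unknown here. The whole testes were pooled and not sorted, so no interval can be given to Sertoli cells, germ cells or any other cell type, and the control was input DNA only.

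In mammals, many protein-coding genes start close to the start of a neighbour on the opposite strand. Such head-to-head pairs, when the starts lie close together, are said to have a bidirectional promoter, and genes for DNA repair, mitochondria, chaperones and ribosome assembly are well known among them. In a head-to-tail pair the genes are read in the same direction and the 3′ end of the upstream gene (its tail) lies near the start of the next. In a tail-to-tail pair only the 3′ ends are close. Promoters of widely expressed genes are commonly rich in CpG and often hold GC boxes (GGGCGG, bound by Sp factors) or ETS sites, to which GABPA and other ETS proteins bind.

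Promoter sequences of 5 head-to-head pairs show how little DNA can lie between the starts of genes that shared an interval. They are the 5 best-scoring head-to-head pairs for which a RefSeq promoter window of 300 bases (250 before to 50 after the start of the plus-strand gene, GRCm38.p6) holds both listed starts. All are written along the plus strand, 5′ to 3′, and capitals mark matches on either strand to any of 9 short motifs. These are the NF-Y box CCAAT, the GC box GGGCGG, the core of ETS sites CCGGAAG, the E-box CACGTG, the part TGACGT of the site bound by CREB and ATF proteins, the YY1 core AAGATGG, the TATA box TATAAA, the NRF1 core GCATGC and the E2F-like core TTCGCG. The plus-strand gene starts at base 251 in each.
Psma7 and Ss18l1: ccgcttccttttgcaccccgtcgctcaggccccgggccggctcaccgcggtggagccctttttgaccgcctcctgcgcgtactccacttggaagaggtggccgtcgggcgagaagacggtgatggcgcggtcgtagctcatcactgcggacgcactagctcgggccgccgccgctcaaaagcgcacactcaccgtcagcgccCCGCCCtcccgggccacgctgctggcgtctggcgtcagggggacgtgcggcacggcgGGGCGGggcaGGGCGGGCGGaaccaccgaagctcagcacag
Lrsam1 and Rpl12: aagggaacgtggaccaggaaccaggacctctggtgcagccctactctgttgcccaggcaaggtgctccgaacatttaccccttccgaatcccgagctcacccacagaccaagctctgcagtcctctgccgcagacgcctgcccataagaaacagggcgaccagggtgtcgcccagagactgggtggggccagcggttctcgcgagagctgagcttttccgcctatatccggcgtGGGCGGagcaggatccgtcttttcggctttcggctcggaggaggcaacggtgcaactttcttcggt
Utp18 and Mbtd1: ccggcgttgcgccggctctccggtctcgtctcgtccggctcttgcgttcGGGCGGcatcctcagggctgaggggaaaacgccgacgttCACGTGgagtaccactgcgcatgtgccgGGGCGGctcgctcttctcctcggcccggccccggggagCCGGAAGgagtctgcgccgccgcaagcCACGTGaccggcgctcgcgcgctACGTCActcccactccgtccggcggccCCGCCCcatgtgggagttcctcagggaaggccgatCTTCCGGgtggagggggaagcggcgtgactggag
Ankib1 and Krit1: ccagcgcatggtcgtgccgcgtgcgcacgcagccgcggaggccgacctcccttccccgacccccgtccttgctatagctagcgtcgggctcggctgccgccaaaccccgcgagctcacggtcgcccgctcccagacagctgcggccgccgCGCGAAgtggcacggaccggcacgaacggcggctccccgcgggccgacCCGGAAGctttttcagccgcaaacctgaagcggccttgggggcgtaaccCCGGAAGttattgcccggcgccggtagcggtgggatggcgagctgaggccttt
Col4a1 and Col4a2: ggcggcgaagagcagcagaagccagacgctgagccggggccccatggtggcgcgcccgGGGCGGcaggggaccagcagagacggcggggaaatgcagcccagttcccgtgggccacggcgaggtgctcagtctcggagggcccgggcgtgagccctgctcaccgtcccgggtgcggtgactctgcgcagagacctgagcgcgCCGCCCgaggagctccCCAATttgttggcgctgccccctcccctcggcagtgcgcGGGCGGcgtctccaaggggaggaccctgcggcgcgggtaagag

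In the Psma7 and Ss18l1 window (chr2:180042233-180042532), Psma7, a proteasome subunit gene, starts at base 232 and runs to the left, 19 bp from the start of Ss18l1, which encodes a calcium-responsive chromatin factor. In the Lrsam1 and Rpl12 window (chr2:32961462-32961761), Lrsam1, a ubiquitin ligase gene, starts at base 180 and Rpl12, a ribosomal protein gene, 71 bp further on. In the Utp18 and Mbtd1 window (chr11:93885600-93885899), Utp18, needed for ribosomal RNA processing, starts at base 167, and the starts are 84 bp apart. This window holds 2 ETS cores (CCGGAAG), 2 E-boxes (CACGTG) and 3 GC boxes. In the Ankib1 and Krit1 window (chr5:3802915-3803214), Ankib1 starts at base 210, 41 bp from the start of Krit1, a gene of vascular integrity, and the window holds 2 ETS cores and no GC box. Col4a1 and Col4a2 (chr8:11312555-11312854), which encode the partner chains of basement membrane collagen, have listed starts that cross: Col4a1 starts at base 272, so the first bases of their transcripts overlap. Listed starts can differ from the ends of gene records, which are used for all spacings below and lie 19, 58, 84, 32 and 84 bp apart in these 5 pairs. The Col4a1 and Col4a2 window was added to the printed set after its values were seen. Motif matches are letters only and do not show that a factor was bound.

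Most shared intervals joined exactly 2 genes. Of the 940, 912 reached 2 genes, 27 reached 3 and 1 reached 4. Together they joined 957 distinct gene pairs and 1779 genes, which is 8.13% of the 21887 protein-coding genes, where 27.1% had any interval at an end. Of the 5930 genes with an interval, 30.0% thus had a shared one. In 562 of 940 (59.8%, interval 56.6 to 62.9%) the interval itself covered the second gene's end, and in 804 (85.5%) that end lay within 500 bp. An end of every gene reached was covered in 551 intervals (58.6%), and in 117 (12.45%) no end was covered. Just inside the limit were Efnb3 with Wrap53 at 997 bp and Slc35a1 with Cfap206 at 990 bp. Just outside it were Atp6v0a2 with Tctn2 at 1004 bp and Ubl5 with Fbxl12 at 1008 bp.

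Shared intervals lay at starts of transcription. Strand was taken from the RefSeq promoter table, matched by gene ID, which gave it for 17492 of 21887 protein-coding genes and for every gene at 701 of the 940 shared intervals. Strand on chromosome 18 was not used here, so values by start, arrangement and promoter leave that chromosome out. It holds 12 of the shared intervals, and 457 of the close pairs described below, of which 2.63% had a shared interval. Of these 701 intervals, 506 (72.2%, interval 68.7 to 75.5%) reached the starts of 2 or more genes, 173 (24.7%) reached 1 start and the tail of a neighbour, and 22 (3.14%, interval 1.98 to 4.71%) reached tails only. Among intervals at 1 gene, 88 of 3449 (2.55%) lay at a tail. The counting intervals of these small shares overlap. Median scores were 137.7 for shared intervals at 2 or more starts (95% interval of the median 128.9 to 146.2), 132.8 at 1 start (121.1 to 143.85) and 103.7 at tails only (85.3 to 146.95). The score is the authors' own evidence value for each interval and its scale is not stated.

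Of the 957 pairs, strand was known for both genes in 717. Head-to-head pairs made up 474 of them (66.1%, interval 62.5 to 69.6%), head-to-tail pairs 155 (21.6%) and tail-to-tail pairs 46 (6.42%). In 24 pairs a start lay near a tail on the opposite strand, in 15 the starts were on the same strand, and in 3 nested pairs the tails were. Head-to-head pairs had a median of 143 bp between starts (quartiles 58.25 and 393.75 bp), against 489 bp between the ends of head-to-tail pairs and 280.5 bp for tail-to-tail pairs. The few pairs with starts on the same strand had a median of 14 bp. The starts of head-to-head pairs lay within 100 bp of each other in 194 of 474 (40.9%) and within 1000 bp in 446 (94.1%).

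The gene records of a pair often overlapped. Over all 957 pairs the median spacing of the closest ends was 218 bp (quartiles 76 and 605 bp), and 622 pairs (65.0%) were separate, 309 (32.3%) overlapped and 26 (2.72%) were nested. Of the 474 head-to-head pairs, 291 were separate, with a median of 98 bp between starts, and 183 overlapped, with a median of 342 bp. Median scores were 134.1 for the separate head-to-head pairs (122.1 to 145.8) and 147.9 for the overlapping ones (130.6 to 170.0), ranges that overlap.

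How often a close pair shared an interval depended on its arrangement. Close pairs are here all protein-coding genes with ends within 2 kb of each other, and 946 of 4810 (19.7%) had a shared interval. The share was 46.9% for head-to-head pairs (471 of 1005, interval 43.7 to 50.01%), 17.0% for head-to-tail pairs (153 of 902, 14.6 to 19.6%) and 4.29% for tail-to-tail pairs (45 of 1049, 3.15 to 5.70%). By spacing, the share in head-to-head pairs was 51.5% up to 100 bp, 46.7% over 100 and up to 300 bp, 50.85% over 300 and up to 1000 bp and 22.9% beyond. A shared interval must lie within 1000 bp of both ends, so the rule itself lowers the share beyond 1000 bp. There, 16.5% of head-to-head pairs had an interval at 1 gene only, against 1.59% up to 100 bp. In head-to-tail pairs the share was highest over 100 and up to 300 bp, at 36.4% (27.4 to 46.1%), and in tail-to-tail pairs it was at most 7.18%.

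**Figure D1:**
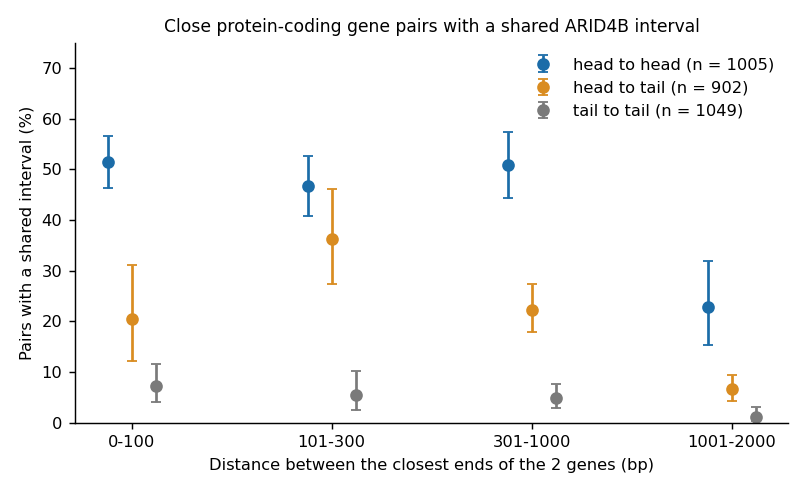
Share of close protein-coding gene pairs with a shared ARID4B interval, in percent (y axis), by the distance between their closest ends in bp (x axis) and by arrangement (colours). Points are shares with 95% Clopper-Pearson bars. Head-to-head pairs lie above the other arrangements in every bin. All 3 arrangements are lowest over 1000 bp, where the rule itself makes sharing harder.

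A head-to-head pair had a shared interval or, with few exceptions, none. Of 1005 close head-to-head pairs, 491 (48.9%) had no interval at either gene, 40 (3.98%) had an interval at 1 gene only and 3 (0.30%) had a separate interval at each. Given any interval, 471 of 514 pairs (91.6%) shared it. Tail-to-tail pairs, whose starts lie apart, had an interval in 648 of 1049 (61.8%), against 51.1% of head-to-head pairs, but it was shared in 45 of the 648 (6.94%), lay at 1 gene only in 442 pairs, and each gene had its own in 161 (15.35%). Head-to-tail pairs lay between, with 35.5% of 431 shared. Where starts lie within 1000 bp of each other, most intervals at either start also meet the rule for the other, so sharing given an interval is largely fixed by the rule. Genes with another coding end within 2 kb had an interval more often than genes without one, 39.0% of 7048 against 21.4% of 14839. Of the former, 25.2% had a shared one. By arrangement, 49.4% of genes in close head-to-head pairs had an interval, 40.7% in tail-to-tail pairs and 34.6% in head-to-tail pairs. An interval at a close neighbour's end can also meet the rule for the gene itself. These rates therefore include intervals credited through the neighbour, and the size of that part was not tested.

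**Figure D2:**
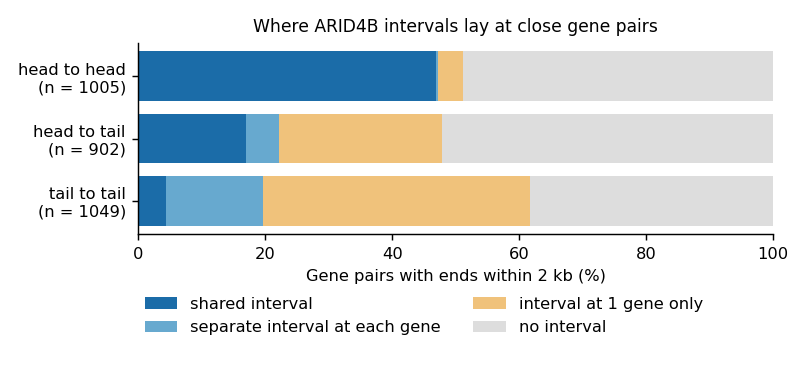
Outcome at close gene pairs by arrangement (rows), as percent of pairs (x axis): a shared interval, an interval at each gene, an interval at 1 gene only, or none. The shared part shrinks from 46.9% in head-to-head to 4.29% in tail-to-tail pairs, where intervals at 1 gene only make up 42.1%.

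At head-to-head pairs the interval covered both starts in 375 of 474 pairs (79.1%), 1 start in 68 and none in 31. Where its midpoint lay went with the width of the gap. Over all pairs it was between the starts in 139 (29.3%), on the side of lower coordinates in 171 and on the other side in 164. The midpoint was a median of 150.75 bp from the nearer start and 318.5 bp from the farther. In the 194 pairs with starts within 100 bp, it lay outside the gap in all but 14, at a median of 163.5 bp from the middle. It lay between the starts in 29.3% of pairs with a gap over 100 and up to 300 bp and in 51.3% of those with a gap over 300 and up to 1000 bp. In the 25 pairs with starts over 1000 and up to 2000 bp apart, it lay between them in 22. A narrow gap can seldom hold a midpoint, and a shared interval must lie within 1000 bp of both starts. This trend is therefore largely set by geometry and the rule. The gene the midpoint leaned toward was the longer record in 227 of 474 pairs (47.9%). For 3361 intervals at the start of 1 gene, the midpoint was typically 316.5 bp (median) downstream of that start, and it was downstream in 91.5%.

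**Figure D3:**
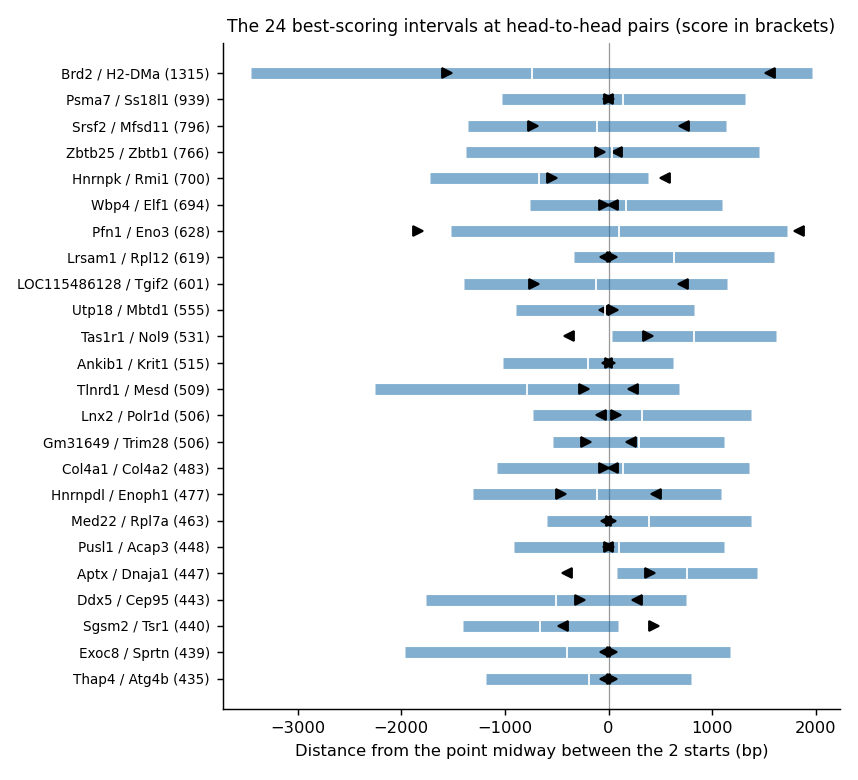
The 24 best-scoring intervals at head-to-head pairs (bars, white line at the midpoint), drawn by distance in bp from the point midway between the starts (x axis). Black arrows mark the starts and their direction, and arrows that point toward each other mark overlapping records. Most bars span both arrows. Those of Hnrnpk and Rmi1, Tas1r1 and Nol9, Aptx and Dnaja1, and Sgsm2 and Tsr1 lie over 1 start only, and that of Pfn1 and Eno3 over none.

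The best-scoring head-to-head interval joined Brd2 and H2-DMa (chr17:34117800-34123221, score 1314.68). Brd2 encodes a bromodomain protein that binds acetylated histones, and H2-DMa a chaperone of antigen loading. Their records overlapped, with starts 3121 bp apart, and the 5422 bp interval, the widest of all shared ones, covered both. The Psma7 and Ss18l1 interval (chr2:180041447-180043787, 938.92), over the 19 bp gap printed above, followed. Srsf2, a splicing factor gene, and Mfsd11 (795.71) had overlapping records with starts 1464 bp apart. Zbtb25 and Zbtb1, related zinc finger genes, overlapped by 164 bp under an interval of 766.41. Hnrnpk, for an RNA-binding protein, and Rmi1, for a partner of the BLM helicase, shared 699.97. The interval covered the start of Rmi1 and ended 164 bp short of the start of Hnrnpk. Wbp4 and Elf1, an ETS factor gene, shared 694.15 with starts 94 bp apart.

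Others of the 20 best shared intervals joined a ribosome gene to a neighbour or reached genes of unlike kinds. Pfn1, for the actin-binding protein profilin, and Eno3, for muscle enolase, had starts 3674 bp apart in overlapping records, and their interval (628.39) covered neither start, lying 115 and 314 bp from them. The Lrsam1 and Rpl12 interval scored 619.44, and that of Utp18 and Mbtd1, both in the printed set, 554.96. Tas1r1, a taste receptor gene, and Nol9, a pre-ribosomal RNA processing gene, had starts 771 bp apart, and the interval (530.91) covered the start of Nol9 and ended 424 bp short of Tas1r1. Ankib1 and Krit1 shared 514.77, and Tlnrd1 and Mesd 509.21. The interval at Ift80, a gene of cilium transport, and Smc4, a condensin gene (575.40), covered the ends of both records, 58 bp apart. The strand of that pair was not used here.

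Among pairs of other arrangements, the best-scoring intervals mostly belonged to 1 gene of the pair. The highest score of all shared intervals, 1584.47, was at Hic1 and Smg6 (chr11:75164932-75169661). This interval lay wholly inside the record of Hic1, a transcriptional repressor gene, 594 bp from the Hic1 start, and reached Smg6 only through its tail, 484 bp away. The interval at Jund and Iqcn (chr8:70698317-70700625, 780.89) lay almost wholly on Jund, an AP-1 factor gene, and stopped 696 bp short of the start of Iqcn. The interval of Isyna1 and Ssbp4 (chr8:70594115-70599513, 764.63), a tail-to-tail pair with ends 195 bp apart, was 5399 bp wide and covered the whole Isyna1 record (chr8:70594481-70597290), start included. Pim3, a kinase gene, shared 755.31 with the tail of the provisionally named Gm33049, and the interval covered the Pim3 start.

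In most head-to-tail pairs the interval leaned toward the start, but not in the best-scoring ones. The midpoint was nearer the start than the tail in 132 of 155 pairs (85.2%), and in 91 of the 99 pairs with ends over 300 bp apart (91.9%). Its median distance was 294.5 bp from the start and 820.5 bp from the tail. The best-scoring interval, at Jund and Iqcn, had its midpoint 1850 bp from the Iqcn start and 1145 bp from the Jund tail. The next, at Pim3 and Gm33049, had it 1050 bp from the Pim3 start and 738 bp from the Gm33049 tail. The gene reached at its tail had an interval at its own start in 57 pairs (36.8%). That count includes cases in which the shared interval itself also reached that start, as at Slc39a7 with H2-Ke6. For comparison, 27.1% of all protein-coding genes and 39.0% of those with another coding end within 2 kb had an interval at either end. At Aars, for alanyl-tRNA synthetase, and Exosc6, for an RNA exosome subunit (503.68), the interval covered the start of Exosc6 and lay 293 bp from the tail of Aars. At Senp3, for a SUMO protease, and Eif4a1, for a translation initiation helicase (434.60), it covered the start of Eif4a1, and Senp3 had its own interval at its start. At Chd4, for a nucleosome remodeller, and Nop2, for a ribosomal RNA methyltransferase (335.49), the midpoint was 62.5 bp from the start of Nop2 and 1354.5 bp from the tail of Chd4. At Dmpk, the myotonic dystrophy kinase gene, and Six5 (409.79), it was 829 bp from the start of Six5 and 1552 bp from the tail of Dmpk.

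The 22 shared intervals at tails only had low scores, with 8 of 22 above the median of the whole list. Intervals at the tail of 1 gene were alike, with a median of 103.9 and 25 of 88 above the median of the list. In 5 of the 22, RefSeq lists a start within 1 kb, either of a gene of the pair or of another gene. The best of the 22 was at Rps2, a ribosomal protein gene, and Ndufb10 (455.08), where listed starts of Rps2 and Snhg9 lie within 1 kb. Dbn1 with Prr7 (362.99), which has none listed, came next, and Eva1b with Sh3d21 (315.57), with a listed start of Eva1b, after it.

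Intervals at 3 or more genes were led by Aars, Exosc6 and Gm38523 (503.68). H2-Ke6, Rxrb and Slc39a7 (348.04), Cuedc2, Fbxl15 and Psd (297.71) and 1110065P20Rik, Mtf1 and Yrdc (283.45) were also among the best 5. The interval at 4 genes joined Eme2, Mapk8ip3, Mrps34 and Nme3 (197.02). Conversely, 42 pairs had 2 shared intervals, a median of 148 bp apart. With strand known, 19 of these pairs were head to head, 5 head to tail and 1 tail to tail. In 3 a start lay near a tail on the opposite strand. Head-to-head pairs were also 66.1% of all shared pairs with known strand.

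Shared intervals were wider than those at 1 gene, with a median of 1223.5 bp against 1079 bp, as a rule on reaching another gene end favours. Their median score was 133.1 (quartiles 97.2 and 208.4, 95% interval of the median 127.6 to 140.45), against 127.6 (125.6 to 130.75) at 1 gene. At like width the order turned. In each quartile of width the shared intervals had the lower median, 91.8 against 92.7 in the narrowest and 207.1 against 227.3 in the widest. The share of intervals that were shared rose with width from 8.42% to 21.4%, and with score from 10.7% in the lowest decile to 18.1% in the highest. Of the 100 best-scoring intervals in the list, 20 were shared.

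**Figure D4:**
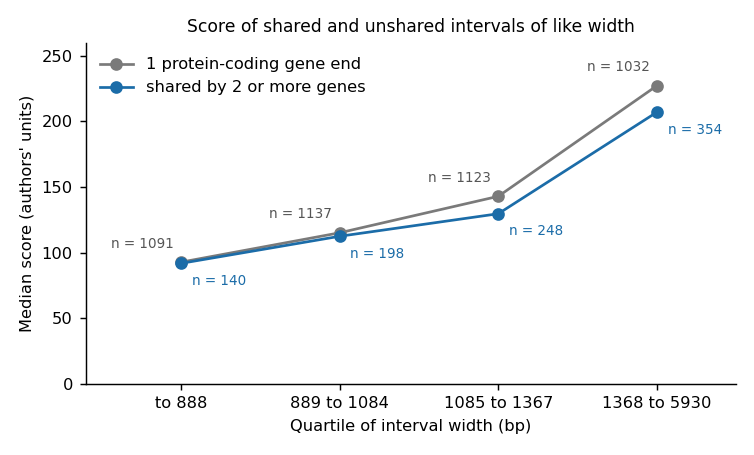
Median score in the authors' units (y axis) of intervals shared by 2 or more genes (blue) and at the ends of 1 gene (grey), by quartile of interval width in bp (x axis), with the number of intervals beside each point. The blue points lie below the grey ones in all 4 quartiles, at 207.1 against 227.3 in the widest.

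Of 24 lists of genes, those of mitochondrial ribosomal proteins, tRNA synthetases and oxidative phosphorylation had the highest shares of members with a shared interval. Each count is read against 8.13% of all protein-coding genes, 30.0% of genes with an interval and 25.2% of genes with a close neighbour. Of 78 mitochondrial ribosomal protein genes, 22 (28.2%) had a shared interval, which is 56.4% of those with any. They included Mrps6 with Slc5a3 (281.57), Mrps7 with Gga3 (270.76) and Mrpl40 with the histone chaperone gene Hira (269.92). Of 105 oxidative phosphorylation genes, 23 (21.9%) had one, 63.9% of those with any, led by Ndufb10, then Ndufa13 with Tssk6 (250.92) and Atp5j with Gabpa (246.22). Atp5j encodes an ATP synthase subunit and Gabpa the ETS factor that binds CCGGAAG, and their overlapping records have starts 966 bp apart. Of 33 tRNA synthetase genes, 9 (27.3%) had one, among them Aars, Vars (312.97) and Yars with S100pbp (307.37). These families also have close neighbours often: 64.1% of the mitochondrial ribosomal, 60.95% of the oxidative phosphorylation and 51.5% of the synthetase genes, against 32.2% of all genes. Among members with a close neighbour the shares were 44.0, 35.9 and 52.9%. By that measure the lists below 25.2% were DNA replication and repair (23.6%), the ubiquitin pathway (22.2%), mitochondrial import (4 of 20), Hox genes (15.4%), histones (9.26%), Leydig and other interstitial genes (8.33%) and germ cell genes (0 of 9).

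Cytosolic ribosomal protein genes had shared intervals in 15 of 84 (17.9%), and these had the highest median score of the 24 lists, 369.45 against 137.4 for all genes with a shared interval. After Rpl12 came Rpl36 with Lonp1 (468.60), Rpl7a with Med22 (462.78) and Rps2. Rpl7a and Med22, a Mediator subunit gene, start 43 bp apart. A ribosomal protein gene with an interval shared it in 27.8%, near the 30.0% of all genes with an interval. Of 48 proteasome genes 8 (16.7%) had one, of 71 translation factor genes 10 (14.1%) and of 184 splicing and RNA-binding genes 30 (16.3%), Srsf2, Hnrnpk and Hnrnpdl with Enoph1 (476.75) being the best of the last. Of 88 chaperone genes 18 (20.45%) had one, led by Dnaja1 with Aptx (447.44) and by Hspd1 with Hspe1 (366.98), the mitochondrial chaperonin and its co-chaperonin. Of 29 mitochondrial import genes 4 (13.8%) had one, with Timm9 (393.03) the best.

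Of the lists for chromatin and transcription, the chromatin enzyme and transcription machinery lists had shares above each background. The shares were 38.3 and 44.8% of members with any interval, and 40.7 and 34.7% of members with a close neighbour. Such a neighbour was present for 49.5 and 58.6% of these lists, against 32.2% of all genes. Of 109 genes in the chromatin enzyme list 23 (21.1%) had a shared interval. The best were Brd2, Kdm5b with Mgat4e (418.77) and the nested pair Kdm2a with 9430078G10Rik (390.03). This list was matched by symbol and also holds genes of proteins that bind chromatin, such as Brd2. Of 128 genes of RNA polymerases and the transcription machinery 26 (20.3%) had one, led by Polr1d with Lnx2 (505.91), Med22 and Taf11 with Anks1 (388.70). Zinc finger genes were near the background with 35 of 484 (7.23%). After Zbtb1 and Zbtb25 came Zfp607b with Map3k10 (268.37). Of 76 histone genes, clustered and with close neighbours in 71.1%, 5 (6.58%) had one. Ubiquitin pathway genes had 30 of 351 (8.55%), led by Trim28 with Gm31649 (505.91), and Hox genes 2 of 39 (5.13%), both at the interval of Hoxa5 and Hoxa6 (164.45).

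Of 122 cell cycle and mitosis genes 13 (10.7%) had a shared interval. That was 18.6% of those with any interval, below the 30.0% over all genes, and 28.3% of those with a close neighbour, above the 25.2%, and 37.7% of the list has one. Smc4 and Ccna2 with Bbs7 (278.00) were the best. The list was matched by symbol, so it also holds Cdc42se1 with Mllt11 (223.46) and Cdc40, which encode an effector of the CDC42 GTPase and a splicing factor. The Ccna2 interval covered neither gene's end, lying 573 and 677 bp away. Genes of DNA replication and repair, of which 58.5% have a close neighbour, had 17 of 123 (13.8%), 42.5% of those with any. They included Mcm7, for a replicative helicase subunit, with Ap4m1 (287.57), Rad9b with Vps29 (260.61) and Atr, a DNA damage kinase gene, with 1700065D16Rik (224.26). Of 105 centrosome and cilium genes 15 (14.3%) had one, with Ift80 and Cep95 with Ddx5 (443.33) the best. Vesicle traffic genes had 28 of 223 (12.6%), led by Exoc8 with Sprtn (439.34), and Tmem genes 28 of 238 (11.8%), led by Tmem263 with Fhl4 (275.79). Close neighbours were present for 49.5% of centrosome and cilium, 43.5% of vesicle traffic and 44.1% of Tmem genes, against 32.2% of all. Of members with any interval, 40.5, 28.3 and 36.4% shared it.

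In the list of SIN3-HDAC complex and retinoblastoma family genes, 3 of 23 had a shared interval. That was 18.75% of those with any interval, below the 30.0% over all genes, and 3 of 8 with a close neighbour. For 1 of the 3 the interval was known to reach 2 or more starts. An end named below without the word start can be a tail. At Hdac1, the deacetylase of ARID4B's own complex, and Marcksl1 the interval (372.07) covered an end of Marcksl1 and lay 733 bp from the Hdac1 record. At Kdm5a, a histone demethylase gene, and Ccdc77 (251.79) it covered an end of both records, which overlap. At Rbbp4, for a histone-binding subunit, and Zbtb8os (198.24) it covered an end of both. Of 36 Sertoli cell genes 2 had one, which is 12.5% of those with any interval and 2 of 5 with a close neighbour. For 1 of the 2, the starts of 2 or more genes were reached. The higher of the 2 intervals at Inha, the inhibin alpha gene, and Obsl1 (357.46) covered the start of Obsl1 and lay 312 bp from the start of Inha, and the lower (88.48) lay 157 bp from Inha and 748 bp from Obsl1. The starts of this head-to-head pair are 591 bp apart. At Amh, for anti-Müllerian hormone, and Jsrp1 (352.50) the interval covered an end of Amh and lay 812 bp from Jsrp1. Of 38 germ cell genes 0 had a shared interval, 5 (13.2%) had any interval and 9 have a close neighbour. With 3 genes as a rough limit that a count of 0 allows, the share is up to 7.89%. That limit is not a Clopper-Pearson one and cannot set the list apart from the 8.13% of all genes. Of 29 Leydig and other interstitial genes 1 had one, Eng with Fpgs (72.11), an interval at tails only.

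Partners seldom belonged to the same list, as far as the lists go, which hold 365 of the 1779 genes (20.5%). In 9 of the 957 pairs (0.94%) both genes were in the same list, in 12 (1.25%) they shared a symbol stem, and 17 (1.78%) met either. Beside Zbtb25 with Zbtb1, Col4a1 with Col4a2 (483.13) and Hspd1 with Hspe1, these were led by Zfp668 with Zfp646 (222.65), Zfp786 with Zfp398 (195.24), Exoc5 with Ap5m1 (192.22) and Akap8 with Akap8l (178.57). Close pairs with the same stem had a shared interval in 12 of 357 (3.36%), against the 19.7% of all close pairs, and those of the same list in 9 of 87 (10.3%). A provisional symbol was present in 107 pairs (11.2%).

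Promoters of head-to-head pairs with a shared interval were rich in CpG and in ETS cores. The RefSeq windows of 943 such genes had a median GC content of 65.7% and a ratio of observed to expected CpG of 0.88. The values were 64.7% and 0.83 for 3213 genes with an interval at their start alone, 58.7% and 0.76 for 969 genes of close head-to-head pairs without any interval, and 56.3% and 0.58 for all 17492. The ETS core CCGGAAG was present in 28.95% of the shared head-to-head windows (interval 26.1 to 32.0%), 16.8% of the 1-gene windows, 22.4% of the head-to-head windows without an interval and 11.9% of all. At head-to-tail pairs it was present in 33.8% of 145 windows of the gene reached at its start (26.15 to 42.1%) and 17.6% of 131 windows of the gene reached at its tail. The windows of Utp18 with Mbtd1 and of Ankib1 with Krit1, printed above, each hold 2.

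Other motifs divided the groups differently. TATAAA was present in 2.97% of shared head-to-head windows, 6.47% of 1-gene windows, 8.67% of head-to-head windows without an interval and 13.3% of all. GC boxes were in 69.25% of shared head-to-head windows and 75.9% of 1-gene windows, against 56.8% without an interval, and all but the Ankib1 and Krit1 window of the printed set hold at least 1. CCAAT, bound by NF-Y, was in 34.9% of shared head-to-head windows, 35.6% of 1-gene windows, 46.4% of head-to-head windows without an interval and 39.2% of all. The YY1 core AAGATGG was in 9.97% of shared head-to-head windows, 6.75% of 1-gene windows and 8.46% of head-to-head windows without an interval (6.79 to 10.4%). The E2F-like core TTCGCG was in 12.4%, 9.40% and 12.2% of the same groups. Between shared head-to-head and 1-gene windows, the E-box, the CREB and ATF motif and the NRF1 core differed by less than 2 percentage points. All motifs were searched on both strands and may overlap each other. Partner genes with close starts share part of their windows, so the windows are not independent, and the part of base composition in these shares was not tested.

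**Figure D5:**
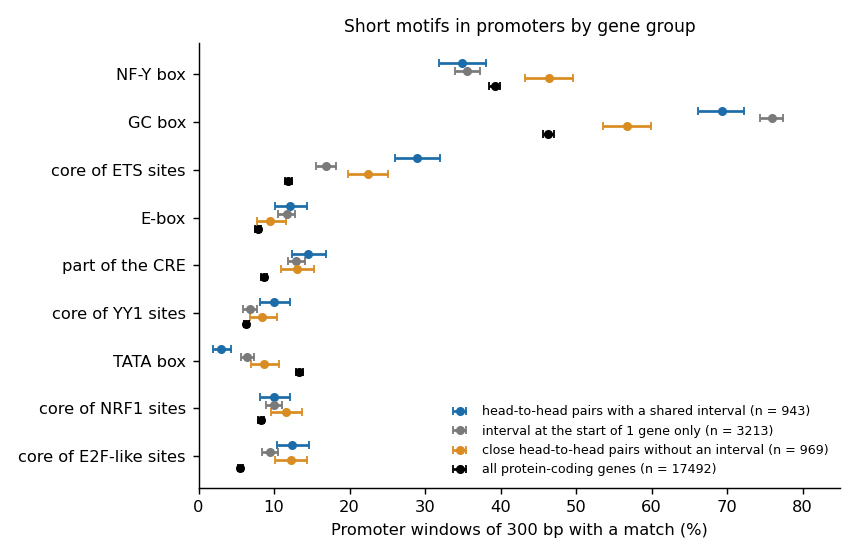
Share of promoter windows of 300 bp with a match, in percent (x axis, 95% Clopper-Pearson bars), for 9 motifs (y axis) and 4 groups of genes (colours). Head-to-head genes with a shared interval lie highest for the core of ETS sites, at 28.95%, and lowest for the TATA box, at 2.97%.

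By chromosome, the share of intervals that were shared ran up to 22.96% on chromosome 17 (76 of 331).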

How the data were processed

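For the ChIP library the authors deposited the positions of 6632 intervals, each with a score. BWA, MACS and build mm9 are named in the submitters' processing notes, with no version, while the deposited list is named for mm10, and it was read as GRCm38, on which most intervals fall at gene ends. The scale of the score is not given in the sources used here, so it was used only to describe and rank intervals within this list. Reads and coverage were not used here, so depth is unknown. Intervals were overlapped with the RefSeq gene table (GRCm38.p6, 21887 protein-coding genes on assembled chromosomes), in which each gene is 1 record and starts inside it are not seen. Strand and promoter windows (250 bases before to 50 after a start) came from RefSeq's promoter table. A record's 5′ end lay within 100 bp of the window's start for 77.4% of 17492 genes. A wide interval meets the rule more easily.

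Pairs were classed by the closest ends reached, each pair by its best-scoring interval, and close pairs by their closest ends. Shares carry Clopper-Pearson intervals (95%) and medians order-statistic ones (Python 3.11.15, pandas 2.3.3, numpy 2.4.6, scipy 1.17.1). The overlap and pairing steps were tested on simulated data. No test between groups was made, since there is 1 library and genes and intervals are not replicates. Named are the 20 best shared intervals, the best 5 at 3 or more genes, the best 3 of each list and arrangement, the best of each overlap class and of the pairs of like function, the intervals nearest the 1000 bp limit, and all at SIN3-HDAC, Sertoli and germ cell genes. Others were named after their values were seen. Some results that the rule names are not reported here. The members and the 24 gene lists, which are matched by symbol, were chosen with earlier results of these data known. A list can therefore hold genes outside its name. Alternatives were an overlap of 100 bp, the midpoint inside the window, windows of 500 bp or 5 kb, intervals above the median score, genes with a curated accession, no provisional symbols, listed starts only and the middle range of widths.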

Additional observations from a re-analysis of the deposited data

How the results depend on the processing

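The number of shared intervals was 1843 with 5 kb windows, 517 among intervals above the median score, 483 with listed starts only, which exist for fewer genes, and 446 in the middle range of widths. Their share of intervals was 12.12% with 500 bp windows, 27.79% with 5 kb, 11.41% by midpoint, 15.59% above the median score, 13.28% with curated genes, 12.89% without provisional symbols and 7.28% with starts only. In the order 5 kb, above the median score, starts only and middle widths, the median score was 126.45, 194.33, 144.77 and 120.62, and the median width 1163, 1416, 1305 and 1113.5 bp. The median spacing was 179 bp (500 bp windows), 1010 bp (5 kb), 165 bp (midpoint) and 164 bp (starts only). Pairs with overlapping or nested records, 35.0% in the report's setting, made up 21.82% (5 kb), 38.6% (above the median score) and 44.8% (starts only). The share of close pairs with a shared interval was 17.11% (500 bp), 30.58% (5 kb), 15.99% (midpoint) and 11.12% (above the median score). Of the pairs with a shared interval and known strand, 72.48% (500 bp) and 74.87% (midpoint) were head to head. Genes of any list numbered 681 (5 kb), 224 (above the median score) and 180 (middle widths). The median score of shared minus 1-gene intervals, an alternative chosen after seeing the data, was 5.53 and turned to -0.14 with 5 kb windows and -6.59 in the middle range of widths. Of 77 planned values 42 stayed within their stated range. No paired analysis was possible because there was 1 ChIP library. Unknown depth limits what the lowest scores and the absence of an interval can show.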
